A study of Mus musculus with 10 samples.

Results

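The hedgehog pathway was followed through 9 of its genes in the first pharyngeal arch (PA1) of mouse embryos with and without the transcription factor GRHL2. The 9 genes are a fixed list of symbols: the ligand gene *Shh*, the receptor and receptor-like genes *Ptch1*, *Hhip* and *Boc*, the transducers *Smo* and *Sufu*, and the transcription factor genes *Gli1*, *Gli2* and *Gli3*. All 9 were found among the 22114 protein-coding genes of the count table, and all 9 passed the filter of 10 counts in 1 arch or more that left 14561 genes to test. RNA was sequenced from PA1 of 5 wild-type and 5 *Grhl2*-/- embryos at E10.5, all male by the study's methods, labelled C57BL/6 and from a line that the methods give as backcrossed to C57BL/6J, with 1 library per arch. The *Grhl2*-/- embryos were homozygous for a null allele present in all of their cells, obtained from heterozygote intercrosses, and neither group received a treatment. PA1 gives rise to the maxillary and mandibular processes, and a whole arch holds surface epithelium, neural crest-derived mesenchyme, vessels, blood, and nerve tissue in 1 RNA sample, so fewer cells of a type and less RNA per cell cannot be told apart.

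SHH is a secreted ligand which in the facial primordia is made by epithelium, mainly of the oral ectoderm and pharyngeal endoderm, and acts on the mesenchyme beneath. In the absence of ligand, the receptor PTCH1 holds the membrane protein SMO inactive at the primary cilium, SUFU retains the GLI proteins, and GLI3 is processed to a repressor. Ligand binding releases SMO, GLI2 and GLI3 act as activators or lose their repressor form, and *Gli1*, *Ptch1* and *Hhip* are transcribed as direct responses, which is why these 3 transcripts are widely read as a measure of pathway activity. PTCH1 and HHIP also bind ligand and limit its spread, whereas BOC is a co-receptor that assists ligand binding.

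Total counts were between 22188454 and 28801378 per arch, at which 3 reads correspond to between 0.104 and 0.136 CPM (TMM-normalized counts scaled to a common library size). *Grhl2* itself (chromosome 15, 37233036 to 37363569, GRCm38) stood at 36.1, 33.5, 40.5, 31.8 and 35.8 CPM in wild-type replicates 1 to 5 and at 5.56, 3.49, 2.80, 6.33 and 4.48 CPM in *Grhl2*-/- replicates 1 to 5. Every library was therefore on the side that its label gives, and *Grhl2* fell by 3.02 on the log2 scale (SE 0.174, limma-voom FDR 2.67e-06). The summed CPM of 10 markers of surface and oral epithelium was 413 to 532 in wild-type arches and 268 to 362 in *Grhl2*-/- arches, and 5 of the 10 were called lower, namely *Epcam*, *Cdh1*, *Krt5*, *Cldn6* and *Grhl2*. Nerve tissue differed widely among arches of the same genotype. The summed CPM of 14 sensory neuron markers was 153 and 129.6 in wild-type replicates 1 and 2, between 763 and 1245 in the other wild-type arches, 452 and 516 in *Grhl2*-/- replicates 1 and 4 and between 1170.1 and 1568 in the other *Grhl2*-/- arches.

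None of the 9 hedgehog genes was called different between the genotypes. By limma-voom at FDR below 0.01, 0 of 9 passed, beside 286 (1.96%) of all 14561 genes. At an unadjusted p below 0.05, 0 of 9 passed with limma-voom, beside 28.5% of all genes. *Smo* passed that level with DESeq2 and under 8 other limma-voom settings (p between 0.0122 and 0.0463), and *Hhip* under 1 (p 0.0209). At FDR 0.01, 0 of 9 passed with edgeR or DESeq2, beside 303 and 1073 of all 14561 genes, respectively. The genotypes overlapped in each of the 9, while 8.88% of all genes had *Grhl2*-/- arches wholly above or wholly below the wild-type ones. Of the 9 log2 fold changes 3 were positive, their median was -0.05 and they ran from -0.13 to 0.14, whereas the median over all genes tested was 0.01. The lowest FDR of a member was 0.179, that of *Smo*.

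The intervals bound how large a difference these arches leave room for. In all 9 genes the 95% confidence interval of the fold change lay inside a 1.5-fold change in either direction, which held for 71.7% of all genes tested. In 5 of 9 it lay inside a 1.2-fold change, which held for 43.6% of all genes. The median width of the interval was 0.42 on the log2 scale for the members and 0.35 for all genes tested, so the members were measured slightly less tightly than a typical gene.

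**Figure D1:**
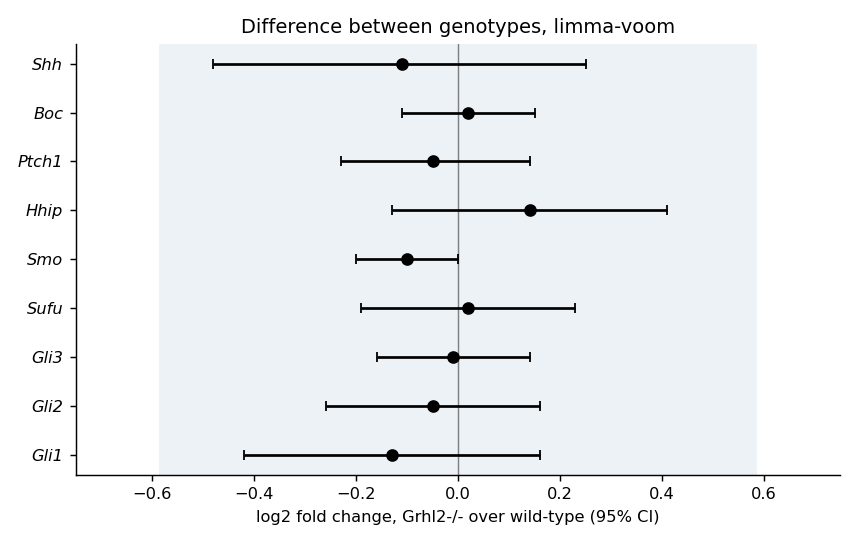
Log2 fold change of each hedgehog gene between *Grhl2*-/- and wild-type PA1 (horizontal axis, points) with its 95% confidence interval from limma-voom (bars, 5 arches per genotype). The shaded band marks a 1.5-fold change in either direction. All 9 intervals sit inside the band, the widest being that of *Shh* and the highest estimate that of *Hhip* at 0.14.

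The ligand gene *Shh* (ENSMUSG00000002633, chromosome 5, 28456815 to 28467256, minus strand, GRCm38) was detected in every arch at low depth, with 94 to 163 reads. In wild-type replicates 1 to 5 it stood at 4.81, 5.86, 3.87, 4.51 and 5.57 CPM. In *Grhl2*-/- replicates 1 to 5 it stood at 3.50, 3.64, 5.40, 5.69 and 4.59 CPM. *Grhl2*-/- replicates 1 and 2 were below every wild-type arch, and the other 3 lay within the wild-type range. The means were 4.93 ± 0.806 CPM (SD, n = 5) and 4.56 ± 0.996 CPM (SD, n = 5). The fold change was 0.925, with a 95% interval of 0.718 to 1.19 (limma-voom FDR 0.696, exact two-sided permutation p = 0.500 over 252 assignments of arches). Exons of *Shh* share sequence with the opposite-strand genes *9530036O11Rik* and *Gm26894*, and the methods do not state the strand setting of the counting. The libraries were stranded and the name of the deposited count table holds the word reverse, which may stand for counting by strand. Without strand, a part of these reads could belong to those genes.

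In the same arches, 5 of the 10 epithelial markers were called lower and 5 were not. Among the former, *Epcam*, which encodes an epithelial adhesion protein, fell by 2.51 on the log2 scale (54.1 ± 6.98 to 9.80 ± 3.14 CPM, n = 5 each, limma-voom FDR 1.04e-05), and *Cdh1*, which encodes E-cadherin, fell by 2.47 (44.2 ± 6.30 to 8.16 ± 2.45 CPM, FDR 1.66e-05). Of the latter, *Trp63*, a transcription factor of stratified epithelium, averaged 73.1 ± 5.78 CPM in wild-type PA1 and 61.9 ± 5.31 CPM without GRHL2 (FDR 0.0566). Likewise *Krt18*, a keratin of simple epithelium, was at 71.8 ± 15.4 and 69.6 ± 19.4 CPM (FDR 0.848). *Foxa2*, a transcription factor of endoderm and floor plate, both sources of SHH in the embryo, was at 2.77 ± 0.345 and 2.92 ± 0.723 CPM (FDR 0.884). The summed CPM of 8 pharyngeal endoderm markers was 58.6 to 70.0 in wild-type and 74.6 to 106 in *Grhl2*-/- arches, with 1 of 8, *Nkx2-3*, called higher, and the summed CPM of 7 markers of floor plate and ventral neural tube was 41.0 to 44.3 and 39.7 to 58.1, with 1 of 7, *Nkx2-9*, called higher. *Nkx2-2*, *Nkx6-2* and *Olig2*, defining markers of ventral neural tube, were below the count filter in these arches. The part of these cell types in the level of *Shh* was not tested.

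Of the genes that bind ligand, *Ptch1* was at similar levels in both genotypes. *Ptch1* (ENSMUSG00000021466, chromosome 13, 63508328 to 63573598, minus strand) encodes the receptor and is itself a response gene. Its CPM was 233, 249, 207, 227 and 214 in wild-type replicates 1 to 5 and 212, 208, 216, 273 and 191 in *Grhl2*-/- replicates 1 to 5. *Grhl2*-/- replicate 4 was the highest and replicate 5 the lowest of all 10 arches, so the *Grhl2*-/- values enclosed the wild-type range. The means were 226 ± 16.3 and 220.0 ± 30.9 CPM (SD, n = 5 each), with a fold change of 0.969 (95% interval 0.852 to 1.10, limma-voom FDR 0.760, exact permutation p = 0.675).

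*Hhip* (ENSMUSG00000064325, chromosome 8, 79965851 to 80058006, minus strand) encodes a membrane-bound antagonist that sequesters ligand, and it had the most positive estimate of the 9. Its CPM was 8.72, 9.31, 7.18, 8.98 and 8.68 in wild-type arches and 9.17, 8.37, 9.10, 12.6 and 8.19 in *Grhl2*-/- arches. A single *Grhl2*-/- arch, replicate 4, stood above all others, and the remaining 4 lay within the wild-type range. The means were 8.58 ± 0.819 and 9.48 ± 1.78 CPM (SD, n = 5 each), a fold change of 1.10 (95% interval 0.913 to 1.33, limma-voom FDR 0.480, exact permutation p = 0.437). Across the alternatives tried, the log2 fold change of 0.14 ran from 0.03, without *Grhl2*-/- replicate 4, to 0.29, and was 0.22 with the sensory neuron marker sum as a covariate, and none passed the threshold.

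*Boc* (ENSMUSG00000022687, chromosome 16, 44485049 to 44558897, minus strand), a co-receptor of the immunoglobulin superfamily, was among the tightest of the 9. It stood at 31.0, 31.9, 32.8, 31.6 and 27.6 CPM in wild-type PA1 and 33.1, 33.6, 29.2, 31.6 and 30.2 CPM in *Grhl2*-/- arches. The groups overlapped over most of their range, and the fold change was 1.02 (95% interval 0.928 to 1.11, limma-voom FDR 0.835, exact permutation p = 0.675).

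Of the transducers, *Smo* (ENSMUSG00000001761, chromosome 6, 29735503 to 29761365, plus strand), the membrane protein that PTCH1 inhibits, came closest to a difference. Its CPM was 278, 282, 264, 265 and 256 in wild-type arches and 267, 234, 263, 253 and 240.1 in *Grhl2*-/- arches. *Grhl2*-/- replicates 2, 4 and 5 were below every wild-type arch, and replicates 1 and 3 were within the wild-type range. The means were 269 ± 10.8 and 251 ± 14.2 CPM (SD, n = 5 each), a fold change of 0.934 with a 95% interval of 0.873 to 1.0 (limma-voom unadjusted p 0.0521, FDR 0.179, exact permutation p = 0.0635). Across the alternatives tried, the FDR of *Smo* was between 0.0654, without *Grhl2*-/- replicate 1, and 0.553.

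*Sufu* (ENSMUSG00000025231, chromosome 19, 46396896 to 46488804, plus strand), which encodes the cytoplasmic inhibitor of GLI proteins, stood at 47.9, 55.1, 45.6, 45.0 and 55.4 CPM in wild-type PA1 and 42.7, 55.7, 44.9, 51.9 and 58.5 CPM in *Grhl2*-/- arches. *Grhl2*-/- replicates 1 and 5 were the lowest and the highest of the 10 arches, and the *Grhl2*-/- values enclosed the wild-type range. The fold change was 1.01 (95% interval 0.875 to 1.17, limma-voom FDR 0.915, exact permutation p = 0.873).

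The 3 Gli transcription factor genes had log2 fold changes of -0.13, -0.05 and -0.01. *Gli1* (ENSMUSG00000025407, chromosome 10, 127329882 to 127341974, minus strand) is an activator that is itself transcribed in response to the pathway. It stood at 47.5, 44.9, 32.0, 38.9 and 38.1 CPM in wild-type replicates 1 to 5 and at 41.1, 35.2, 37.6, 42.6 and 26.7 CPM in *Grhl2*-/- replicates 1 to 5. *Grhl2*-/- replicate 5 was the lowest of the 10 arches, and the other 4 lay within the wild-type range, in which replicates 1 and 2 were the highest. The means were 40.3 ± 6.08 and 36.6 ± 6.26 CPM (SD, n = 5 each), a fold change of 0.913 (95% interval 0.746 to 1.12, limma-voom FDR 0.544, exact permutation p = 0.405). The 2 wild-type arches with the most *Gli1* were those with the lowest sensory neuron marker sum, and with that sum as a covariate the log2 fold change of *Gli1* was 0.02 in place of -0.13 (FDR 0.957). Exons of *Gli1* share sequence with *Arhgap9* and *Gm47200* on the opposite strand.

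*Gli2* (ENSMUSG00000048402, chromosome 1, 118834132 to 119053619, minus strand), the main activator downstream of SMO, stood at 90.4, 98.3, 70.1, 77.5 and 84.7 CPM in wild-type PA1 and 72.1, 88.6, 71.5, 88.3 and 83.9 CPM in *Grhl2*-/- arches. All 5 *Grhl2*-/- values lay within the wild-type range. The fold change was 0.964 (95% interval 0.833 to 1.11, limma-voom FDR 0.750, exact permutation p = 0.611). *Gli3* (ENSMUSG00000021318, chromosome 13, 15463235 to 15730026, plus strand), the main repressor, stood at 252, 301, 229, 238 and 271 CPM in wild-type PA1 and 237, 262, 253, 255 and 268 CPM in *Grhl2*-/- arches. All 5 *Grhl2*-/- values again lay within the wild-type range, with a fold change of 0.991 (95% interval 0.893 to 1.10, limma-voom FDR 0.925, exact permutation p = 0.857). The coefficient of variation of *Gli3* was 4.63% in *Grhl2*-/- and 11.2% in wild-type arches, and this difference in spread was not tested. Exons of *Gli3* and *Hhip* overlap *Gm6556* and *Gm27820*, respectively, on the opposite strand.

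**Figure D2:**
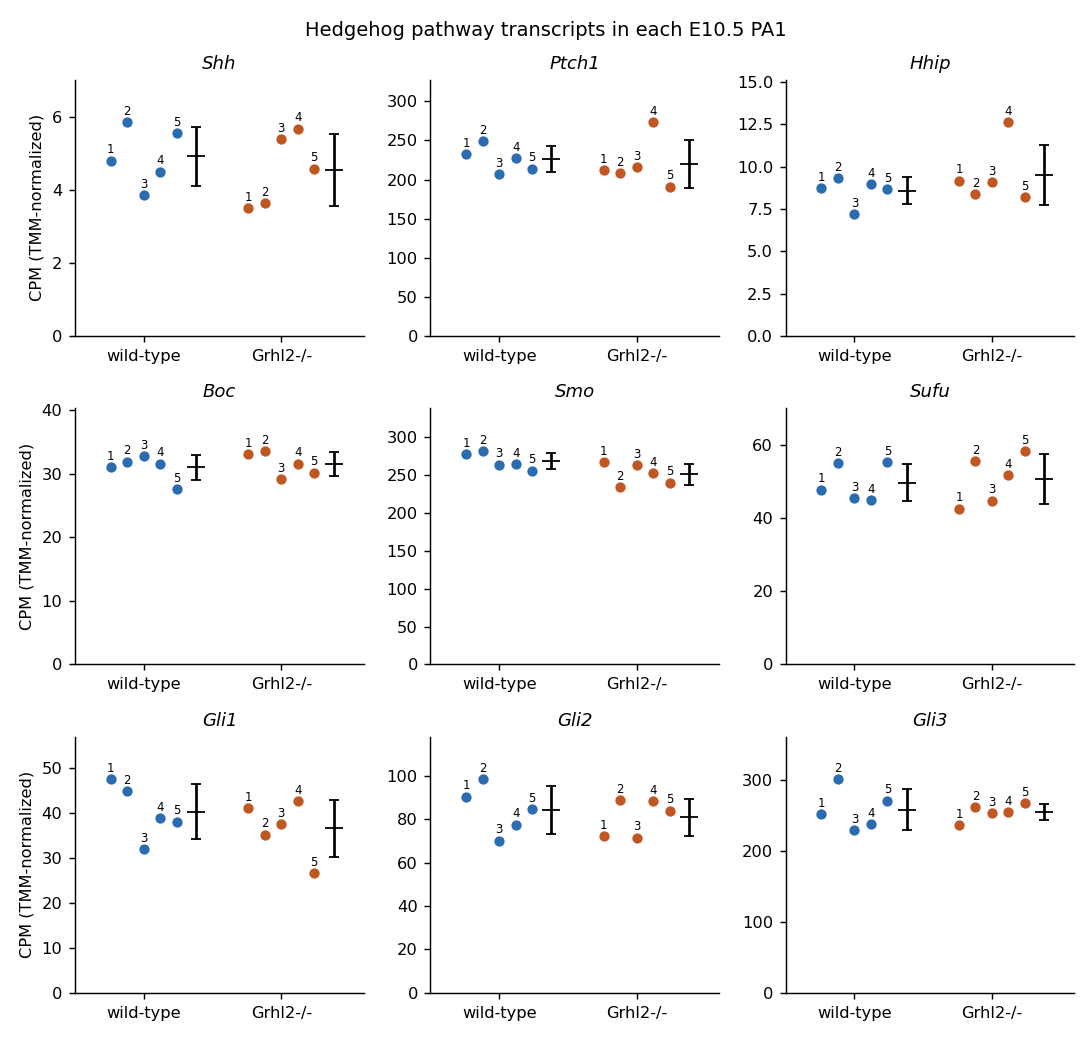
TMM-normalized CPM (vertical axes, from 0) of the 9 hedgehog genes in each PA1. Points are single arches labelled with their replicate number, blue for wild-type and orange for *Grhl2*-/-, and the bars beside them are mean ± SD over 5 arches. The 2 genotypes overlap in all 9 panels, and *Grhl2*-/- replicate 4 stands highest for *Hhip* (12.6 CPM) and *Ptch1* (273 CPM).

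Per kilobase of exon, the order of levels in wild-type arches was *Smo*, *Gli3*, *Ptch1*, *Gli2*, *Gli1*, *Boc*, *Sufu*, *Shh* and *Hhip*. *Smo* stood at 47.8 ± 1.92 CPM per kb (SD, n = 5), *Gli3* at 26.9 ± 3.0, *Ptch1* at 15.9 ± 1.15 and *Gli2* at 12.3 ± 1.6, and the ranges of neighbours among these 4 did not overlap. *Gli1* at 8.07 ± 1.22, *Boc* at 6.96 ± 0.448 and *Sufu* at 6.48 ± 0.662 CPM per kb overlapped in range and were not ordered beyond their spread. *Shh* at 1.73 ± 0.283 and *Hhip* at 0.945 ± 0.0903 CPM per kb were the least abundant, and their ranges of 1.36 to 2.06 and 0.791 to 1.03 did not overlap. The means in *Grhl2*-/- arches had the same order, from 44.7 ± 2.53 CPM per kb for *Smo* to 1.04 ± 0.196 for *Hhip*.

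The response genes varied together among arches of one genotype. Over the 10 arches, deviations of log2 CPM from the genotype means correlated at r = 0.94 between *Ptch1* and *Hhip*, at 0.77 between *Ptch1* and *Gli1* and at 0.72 between *Gli1* and *Hhip*. *Grhl2*-/- replicate 4 was the highest *Grhl2*-/- arch for *Shh*, *Ptch1*, *Gli1* and *Hhip*, and *Grhl2*-/- replicate 5 was the lowest for the 3 response genes. Wild-type replicate 3 was the lowest wild-type arch for all 4. *Shh* itself correlated with response genes and with other members, at r = 0.57 for *Ptch1*, 0.65 for *Hhip* and 0.30 for *Gli1* beside 0.62 for *Gli3*, 0.45 for *Gli2* and -0.65 for *Boc*. Other members also varied together, with r = 0.80 between *Gli2* and *Gli3*, 0.79 between *Gli3* and *Sufu* and 0.77 between *Gli2* and *Sufu*, whereas *Sufu* and *Ptch1* were at -0.01. These values describe 10 libraries that share their normalization and their differences in tissue make-up, and no test was made of them.

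The proportions among the response genes were also read in each arch, a choice made after the values were seen, so no test is given. The ratio of *Hhip* to *Ptch1* CPM was 0.0374, 0.0374, 0.0347, 0.0396 and 0.0405 in wild-type and 0.0433, 0.0401, 0.0421, 0.0461 and 0.0428 in *Grhl2*-/- arches. All *Grhl2*-/- arches except replicate 2 were above every wild-type arch. The ratio of *Hhip* to *Gli1* averaged 0.215 ± 0.0196 in wild-type and 0.261 ± 0.0371 in *Grhl2*-/- arches (SD, n = 5 each), with ranges of 0.184 to 0.231 and 0.223 to 0.306. The ratio of *Ptch1* to *Gli1* averaged 5.67 ± 0.559 and 6.08 ± 0.750, with overlapping ranges of 4.91 to 6.47 and 5.16 to 7.16. Ratios among the Gli genes overlapped widely. *Gli3* to *Gli2*, for example, was 3.07 ± 0.185 and 3.17 ± 0.262.

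**Figure D3:**
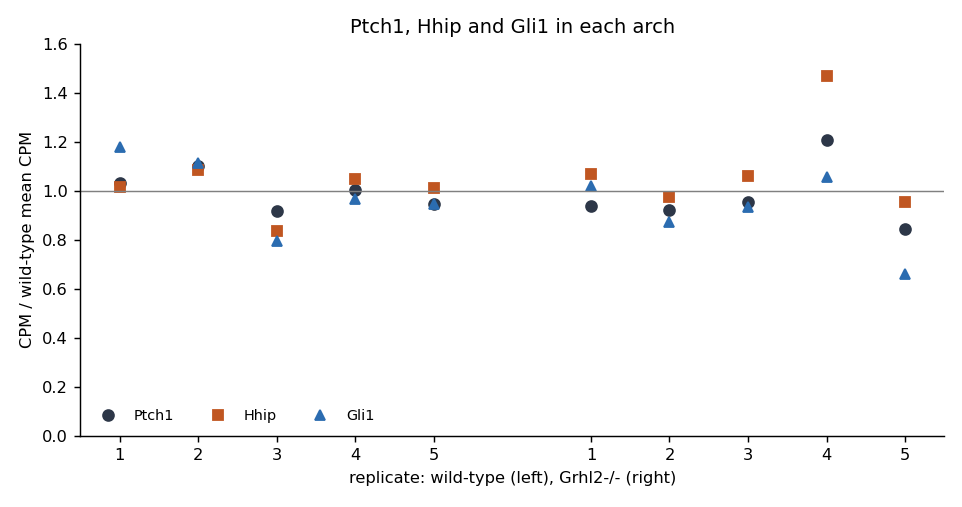
*Ptch1*, *Hhip* and *Gli1* in each arch as CPM divided by the wild-type mean of the same gene (vertical axis, linear, from 0), with wild-type replicates on the left and *Grhl2*-/- replicates on the right of the horizontal axis. The 3 genes shift together between arches, with wild-type replicate 3 and *Grhl2*-/- replicate 5 low and *Grhl2*-/- replicate 4 high for *Hhip* and *Ptch1*.

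The genes whose pattern was most like that of *Shh* over the 10 arches, by Pearson correlation of log2 CPM, were *Atf7ip* (r = 0.94), *Ankfy1* (0.92), *Rfx2* (0.87), *Upk1b* (0.86) and *Plxnb2* (0.86). Those most like *Gli1* were *Erdr1* (0.97), *Plac1* (0.96), *Ccdc80* (0.90), *Nmi* (0.90) and *Rhod* (0.89). No member was in either set of 5. These are the highest of 14561 genes compared over 10 arches and are given as a description.

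Beyond the 9 members, 69 pathway genes tested, members included, were drawn from textbook roles. Of these, 1 was called higher and 0 lower by limma-voom at FDR below 0.01, beside 0.879% of all genes called higher. At an unadjusted p below 0.05, 20 of 69 (29.0%) passed, close to the 28.5% of all genes. Of the 69, 14 (20.3%) were higher, beside 14.2% of all genes, and 6 (8.70%) lower, beside 14.3%. The median log2 fold change was 0.04 against 0.01 for all genes tested. At FDR below 0.05, 5 were higher and 2 lower, beside 559 higher and 564 lower of all 14561 genes.

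The gene called was *Scube1*, which encodes a secreted protein of a family that helps release lipid-modified SHH from producing cells. *Scube1* (chromosome 15, 83604999 to 83725021) stood at 69.8, 64.8, 77.8, 99.0 and 77.4 CPM in wild-type PA1 and 145, 117, 106, 162 and 112 CPM in *Grhl2*-/- arches. All 5 *Grhl2*-/- arches were above all 5 wild-type arches, and 8.88% of all genes had groups apart in one direction or the other. A gene separated in this way gives the smallest permutation p possible, so that p adds no separate support. *Scube1* rose 1.65-fold, from 77.8 ± 13.1 to 128 ± 23.9 CPM (log2 fold change 0.72, 95% interval 0.43 to 1.01, limma-voom FDR 0.00990, exact permutation p = 0.00794, the smallest that 252 assignments can give). The call lay at the threshold: the FDR was 0.0305 without wild-type replicate 1, 0.0300 without replicate 2, 0.0255 without replicate 3 and 0.0278 without replicate 5, and 0.0163, 0.0217, 0.0188 and 0.0192 without *Grhl2*-/- replicates 1, 2, 4 and 5, while the log2 fold change stayed between 0.63 and 0.81. Without both wild-type replicates 1 and 2, the arches with the lowest sensory neuron marker sum, it was 0.58 (FDR 0.0981), and with the sensory neuron marker sum as a covariate it was 0.65 (FDR 0.0340). With the label number as a replicate block it was 0.81 (FDR 0.0459). Other scalings and filters on low counts left the FDR between 0.0105 and 0.0115, and edgeR (FDR 0.00953), DESeq2 (FDR 3.87e-06) and sample quality weights (FDR 0.00907) kept the call.

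A related gene, *Scube3*, stood at 136, 154, 148, 141 and 143 CPM in wild-type PA1 and 217, 177, 161, 215 and 194 CPM in *Grhl2*-/- arches. The groups did not overlap, but its FDR of 0.0122 by limma-voom missed the threshold (log2 fold change 0.41, means 144 ± 6.74 and 193 ± 24.2 CPM), and it was called with edgeR (FDR 0.00953), with DESeq2 (FDR 2.28e-05), with sample quality weights (FDR 0.00456) and without *Grhl2*-/- replicate 3 (FDR 0.00261). The other genes of ligand production were not called. *Hhat*, which palmitoylates the ligand, differed by 0.08 on the log2 scale (FDR 0.438), and *Disp1*, which exports it, by 0.04 (FDR 0.798). *Ihh*, another hedgehog ligand, was not tested, with 3 to 6 reads per arch. In all, 1 of 7 ligand and processing genes was called higher and 0 lower, with a median log2 fold change of 0.08.

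Of 7 receptors, co-receptors and ligand-binding antagonists, 0 were called by limma-voom, edgeR or DESeq2, with a median of 0.02. Of all 14561 genes, these called 286, 303 and 1073, respectively. At an unadjusted p below 0.05, 2 of 7 (28.6%) passed, a share near the 28.5% of all genes. Of these, *Cdon*, a co-receptor related to *Boc*, was at 144 ± 5.21 and 165 ± 19.4 CPM (log2 fold change 0.19, limma-voom FDR 0.113), and *Lrp2*, an endocytic receptor for SHH, was at 72.9 ± 27.7 and 109.9 ± 27.1 CPM (0.63, FDR 0.140). *Gas1*, a co-receptor anchored to the membrane of mesenchymal cells, was at 209 ± 16.0 and 196 ± 8.07 CPM (-0.09, FDR 0.276).

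Of 23 signal transducers, 0 were called by limma-voom or edgeR. DESeq2 called 1, beside 1073 of all 14561 genes. The median was 0.02, and 5 (21.7%) passed an unadjusted p below 0.05, below the 28.5% of all genes. *Adrbk1*, which encodes the kinase GRK2, was at 102 ± 3.38 and 92.8 ± 3.48 CPM (log2 fold change -0.13, limma-voom FDR 0.0577), and *Gpr161*, a ciliary receptor that restrains the pathway, was at 89.9 ± 8.44 and 78.0 ± 6.78 CPM (-0.20, FDR 0.110).

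Of 19 genes of the primary cilium and intraflagellar transport, the compartment in which the signal is relayed, 0 were called by limma-voom or edgeR. DESeq2 called 1, *Wdr19* (FDR 0.00666), beside 1073 of all 14561 genes. Of the 19, 15 (78.9%) had a positive estimate, beside 52.7% of all genes, and the median was 0.12. At an unadjusted p below 0.05, 7 (36.8%) were higher, beside 14.2% of all genes, and 1 was lower. This difference in shares was not tested. *Wdr19* was at 35.1 ± 1.91 and 42.6 ± 4.40 CPM (log2 fold change 0.27, limma-voom FDR 0.0424), *Ift122* at 53.7 ± 0.756 and 58.5 ± 1.07 CPM (0.12, FDR 0.0448) and *Ift52* at 50.4 ± 1.09 and 54.8 ± 1.22 CPM (0.12, FDR 0.0576), all 3 being transport proteins of the cilium.

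Of 14 response genes of facial mesenchyme, which include *Ptch1*, *Gli1* and *Hhip*, 0 were called by limma-voom, with a median of -0.04, and 3 (21.4%) passed an unadjusted p below 0.05, all lower in *Grhl2*-/- arches, beside 14.3% of all genes lower and 28.5% in either direction. *Foxf1*, a forkhead gene induced by hedgehog signals, stood at 32.2, 34.2, 31.4, 29.7 and 26.0 CPM in wild-type PA1 and 23.7, 20.7, 26.0, 23.3 and 16.5 CPM in *Grhl2*-/- arches. The groups met at 26.0 CPM (log2 fold change -0.48, 95% interval -0.73 to -0.24, limma-voom FDR 0.0282). *Ccnd1*, which encodes cyclin D1, stood at 523, 469.8, 423, 433 and 443 CPM in wild-type PA1 and 375, 370.1, 417, 383 and 339 CPM in *Grhl2*-/- arches. Its groups did not overlap (log2 fold change -0.28, 95% interval -0.42 to -0.14, limma-voom FDR 0.0282).

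Both *Foxf1* and *Ccnd1* passed FDR 0.01 with DESeq2 (0.00130 and 0.000936) and neither with edgeR. DESeq2 called 553 of all 14561 genes lower. *Osr2*, a transcription factor of palatal mesenchyme, was at 1.63 ± 0.914 and 0.744 ± 0.546 CPM (-1.14, limma-voom FDR 0.153). It had 9 to 68 reads per arch and lies on the chromosome of *Grhl2* (chromosome 15, 35296098 to 35303305). A part of that position in its level was not tested. The members of the same list had estimates of both signs, -0.05 for *Ptch1*, -0.13 for *Gli1* and 0.14 for *Hhip*, beside -0.48 for *Foxf1*. The summed CPM of 10 ectomesenchyme markers was 1586 to 2050.2 in wild-type and 1312 to 1627 in *Grhl2*-/- arches, with 1 of 10, *Msx1*, called lower, and the part of that difference in the response genes was not tested.

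**Figure D4:**
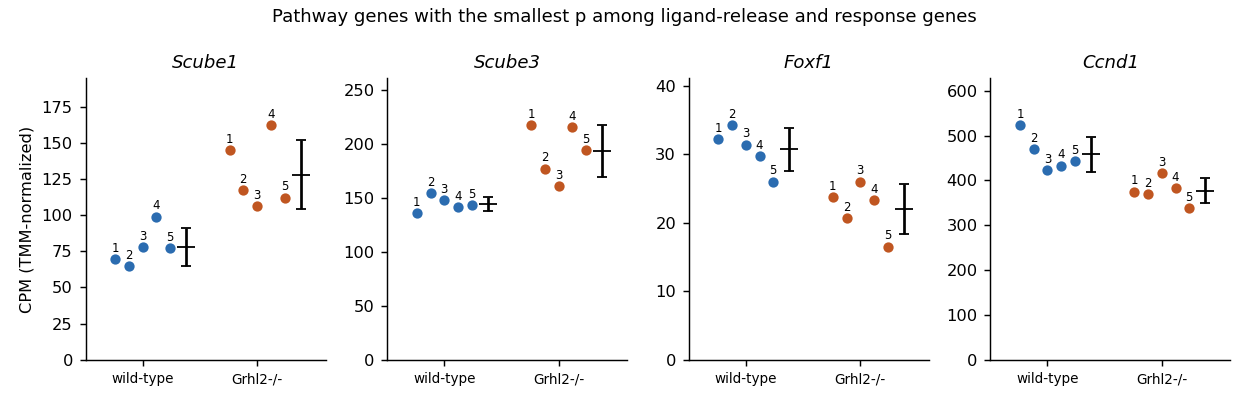
TMM-normalized CPM (vertical axes, from 0) of 4 pathway genes beyond the members in each PA1, with single arches as numbered points, blue for wild-type and orange for *Grhl2*-/-, and mean ± SD over 5 arches as bars. *Scube1* and *Scube3* are higher in every *Grhl2*-/- arch, *Ccnd1* is lower in every *Grhl2*-/- arch, and *Foxf1* meets at 26.0 CPM. *Scube1* alone passed FDR 0.01 by limma-voom.

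**Figure D5:**
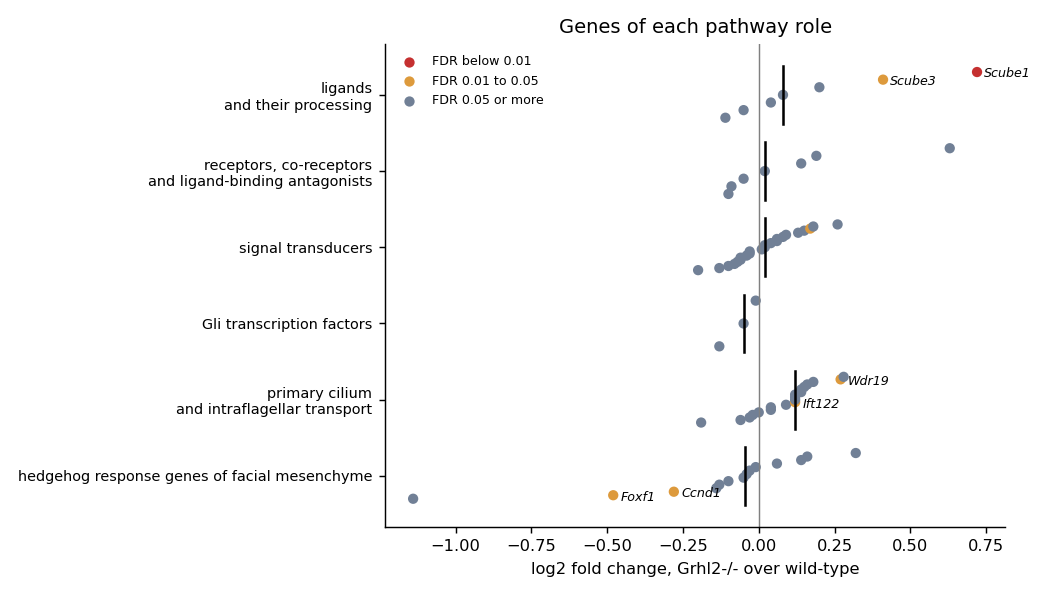
Log2 fold change of *Grhl2*-/- over wild-type PA1 (horizontal axis) for the tested genes of each pathway role (rows), 1 point per gene, coloured by limma-voom FDR, with black lines at the median of each role. Names are given for 6 genes described in the text. *Scube1* at 0.72 is the single gene below FDR 0.01, and the medians lie between -0.05 for the Gli transcription factors and 0.12 for cilium genes.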

How the data were processed

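Total RNA without ribosomal RNA was made into stranded libraries by the authors and read single-end, 50 bp, on 3 lanes. Alignment to GRCm38 by the authors was with STAR, and raw counts per gene from featureCounts were deposited. Their processing notes also name edgeR 3.18.1 and limma 3.32.7. A second deposited table repeats the counts of 15390 genes (0 counts differed) beside the authors' own log2 fold changes, log2 mean expression and adjusted p-values, which were not used. All columns of counts matched a sample title, and 0 were left over. The labels do not say which embryos were littermates, and the methods give littermates as the controls where this could be done. The p-values set the genotype difference against the spread between these arches. Outside the replicate block, they treat the arches as independent.

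Counts of all genes were analysed in R 4.3.3 with limma 3.58.1 and edgeR 4.0.16. A gene entered when 1 arch or more held 10 counts, TMM normalization and voom were applied, genotype was the sole term of the fit, and genes below a Benjamini-Hochberg FDR of 0.01 were called. Exact two-sided permutation tests used the difference in mean log2 CPM (prior count 0.5) over 252 assignments. Coordinates, exon lengths and overlaps are from GENCODE M21 on GRCm38. The fits were also run on simulated data, with set changes larger than the estimate of any member. That run does not bear on differences as small as those of the members. Genes named are the 9 members, *Grhl2*, called pathway genes or otherwise up to 3 per role with the smallest p, and the 5 genes most like *Shh* and *Gli1*; epithelial and endodermal markers were named after their values were seen. Members and gene lists were chosen with earlier results of these data known. Alternatives comprised DESeq2 1.42.0, the quasi-likelihood test of edgeR, other scalings and filters, quality weights, a replicate block, a sensory neuron covariate, FDR 0.05 and leaving out each arch. *Grk2*, *Mosmo*, *Atthog* and *Tctn2* were not matched under these symbols. The values of 1 pathway gene that this rule would name are not reported here.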

Additional observations from a re-analysis of the deposited data

Results flagged for a closer look

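The 66 groups of 5 arches behind the named genes were screened for a single arch far from the others, by comparing its gap to the nearest arch with the range of the group (Dixon's ratio, critical value 0.71). Chance gives about 1 flag in 20 groups, or 3.30 here, and 2 were found. *Hhip* in *Grhl2*-/- arches had a ratio of 0.776, since replicate 4 stood at 12.6 CPM and the next arch at 9.17 CPM. *Gpr161* in *Grhl2*-/- arches had a ratio of 0.817, since replicate 3 stood at 90.0 CPM and the next arch at 76.6 CPM.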

How the results depend on the processing

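No member passed FDR 0.01 under any setting tried, and the lowest FDR of a member was 0.0654 (*Smo*, without *Grhl2*-/- replicate 1). The signs of the members' small differences were less stable. With the label number as a replicate block, log2 fold changes were 0.04 for *Shh*, 0.06 for *Ptch1*, 0.04 for *Gli1*, -0.08 for *Sufu*, 0.00 (from below) for *Boc* and -0.04 for *Disp1*, all with the sign opposite to that without it. Those of *Smo* (-0.04), *Gli2* (-0.09), *Gli3* (-0.03), *Cdon* (0.08) and *Osr2* (-0.52) kept their sign and moved by over 1.5 times. That of *Hhip* was 0.29 (unadjusted p 0.0209, FDR 0.126 by limma-voom), its *Grhl2*-/- arch lying above the wild-type arches of the same number for each of the 3 shared numbers, and that of *Sufu* lay below them for each. *Scube1* lost its call (FDR 0.0459). The labels do not say what the number marks. The 5 pairs of arches with the same number correlated at 0.105 on average (-0.237 to 0.42) and the 20 other pairs at -0.0253 (-0.435 to 0.342). *Grhl2*-/- replicates 2 and 5 share theirs with no wild-type arch. Signs also turned with the sensory neuron covariate (*Ptch1* 0.03, *Gli1* 0.02, *Gli2* 0.05, *Gli3* 0.04), with library size alone (*Gli3* 0.01), with quality weights (*Gli3* 0.00) and, in an alternative chosen after seeing the data, without wild-type replicates 1 and 2 (*Ptch1* 0.00, *Gli2* 0.05, *Gli3* 0.04). Leaving out 1 arch at a time gave -0.21 to -0.03 for *Shh*, -0.13 to -0.01 for *Ptch1*, -0.13 to -0.08 for *Smo*, -0.22 to -0.03 for *Gli1*, -0.12 to 0.01 for *Gli2*, -0.06 to 0.05 for *Gli3*, 0.03 to 0.18 for *Hhip*, -0.04 to 0.07 for *Sufu*, -0.02 to 0.05 for *Boc* and -0.02 to 0.09 for *Disp1*. Pathway genes called higher (1) numbered 2 with edgeR, 4 with DESeq2, 2 with quality weights, 5 at FDR 0.05, 0 to 2 when leaving out 1 arch, and 0 with median-of-ratios size factors, library size alone, no filter, a filter of 10 counts in 5 arches, the replicate block, the covariate, or without wild-type replicates 1 and 2. Those called lower (0) numbered 2 with DESeq2 and 2 at FDR 0.05. Of all genes, 128 higher and 158 lower became 520 and 553 with DESeq2, 559 and 564 at FDR 0.05, 60 and 69 with the replicate block, 19 and 90 without wild-type replicates 1 and 2, 42 to 143 and 110 to 249 when leaving out 1 arch; 204 were higher with quality weights and 58 with the covariate. The causes were not tested. Of 520 fold changes under an alternative, 468 kept direction and side of the threshold.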
